A study of Mus musculus with 4 samples.

Results

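Brain-derived neurotrophic factor (Bdnf) and neurotrophin 3 (Ntf3) are secreted growth factors, and Ntrk2 (TrkB), Ntrk3 (TrkC) and Ngfr (p75NTR) are receptors that bind them. DNA methylation at these 5 mouse genes was compared between the brains of offspring exposed to estriol (E3) before birth and control (CT) offspring. The 5 genes were taken by name out of 34125 RefSeq genes with a measured CpG. A hippocampus CpG site was assigned to a gene from 1 kb before its transcription start to its end, with at least 5 reads in both libraries, which gave 1019 of 2226271 sites. In the frontal cortex, 7 of 9731 listed CpGs carried a member's name in the authors' annotation, 5 in Ntrk2 and 2 in Ntf3.

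All 4 libraries came from wild type female CD-1 mice, an outbred stock, and the labels give an age of 8 weeks. The study states no age for the methylation samples in its methods and describes older offspring for brain expression, so the age at sampling is uncertain. The E3 offspring were born to 8-week-old CD-1 mothers that received estriol from an implanted pump (50 µl at 0.46 mg/ml in DMSO) for 7 days from gestation day 9, counting the plug as day 0.5, and the CT mothers received the DMSO vehicle alone in the same way. Methyl-MiniSeq, a reduced-representation bisulfite assay, covers cytosines near places where TaqαI or MspI cut. With a single E3 library and a single CT library per tissue there was no replicate check, and every p-value compares 2 libraries and not the conditions. The labels do not say whether a library held 1 mouse or several, nor whether both tissues came from the same mice. Between outbred mice, a base difference at a CpG and a difference in methylation cannot be told apart from these values.

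Bdnf acts mainly through Ntrk2 and Ntf3 mainly through Ntrk3, both receptor tyrosine kinases, while Ngfr binds all neurotrophins and belongs to the tumour necrosis factor receptor family. In the hippocampus and cortex these factors support neuronal survival, dendrite growth and synaptic plasticity. Bdnf is transcribed from several alternative promoters, each with its own first exon spliced to a shared coding exon, and methylation of CpGs near such starts is usually low where a promoter can be used.

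The members' sites were read at a median of 27 reads in E3 and 9 reads in CT, the same medians as over all sites, so CT levels carry most of the counting error. Intervals given with levels are 95% Wilson intervals. They cover counting error only and treat each read as an independent molecule. Reads are not independent molecules, so the intervals are too narrow. A site was called where a 2-sided Fisher's exact test gave an unadjusted p under 0.05 and the levels differed by at least 10 percentage points. Of the 1019 sites, 55 were called higher and 70 lower in E3, together 12.3%, beside 11.0% of all sites in the table (6.18% higher and 4.83% lower). With Benjamini-Hochberg adjustment over the whole table, 41 of the 125 calls had an adjusted p under 0.05. These 41 were 4.02% of the 1019 sites, beside 3.35% of all sites in the table. Over 19926 genes with at least 20 sites the median share of sites called was 8%, and the members had 10.9% in Bdnf, 11.3% in Ntf3, 16.7% in Ntrk2, 9.8% in Ntrk3 and 5.21% in Ngfr.

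The direction of the calls differed between the members. Bdnf had 1 site called higher and 28 lower of 266, and Ngfr had 0 higher and 5 lower of 96. Ntrk3 had 12 higher and 3 lower of 153, Ntrk2 had 34 higher and 25 lower of 354, and Ntf3 had 8 higher and 9 lower of 150. The mean level over sites was 12.8% in E3 and 16.2% in CT for Bdnf, 19.2% in E3 and 16.9% in CT for Ntf3, 66.2% in E3 and 66.5% in CT for Ntrk2, 48.4% in E3 and 44.9% in CT for Ntrk3, and 24.5% in E3 and 26.7% in CT for Ngfr. All of these differences lay within the middle 90% of the 19926 genes, which ran from -6.49 to 6.24 points around a median of 0.04. Those genes had at least 20 sites and the members 96 to 354. Means over fewer sites scatter more, so the range is not matched to the members and falling inside it says little. The member means moved with the sites and weights used. With reads pooled over a gene the E3 minus CT difference was -9.45 points in Ngfr, 9.02 in Ntrk3, -5.62 in Ntrk2, 5.24 in Ntf3 and -0.81 in Bdnf. The range over the 19926 genes is one of means over sites, and no range was made for pooled reads. With at least 10 reads the means of Ntrk2 (2.12) and Ntrk3 (-0.20) had the other sign.

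Cytosines outside CpG were read in the same libraries. They are written CHG and CHH, where H is any base but G. Neurons are known to carry some methylation there, and a cytosine that bisulfite fails to convert is also counted as methylated, and the read counts cannot tell these apart. Over the whole table, pooled CHG and CHH reads were methylated at 2.38% in E3 and 2.57% in CT. A CpG site was set apart where the CHG and CHH cytosines of its own strand within 50 bases read 10% or more in either library. Without such sites 48 higher and 46 lower calls stood among 943 member sites, which is 9.97%, beside 10.7% of all remaining sites in the table (4.58% lower). Bdnf was the member whose counts differed most. It had 0 higher and 9 lower calls among 226 sites, or 3.98% lower, and mean levels of 12.4% in E3 and 13.0% in CT.

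**Figure D1:**
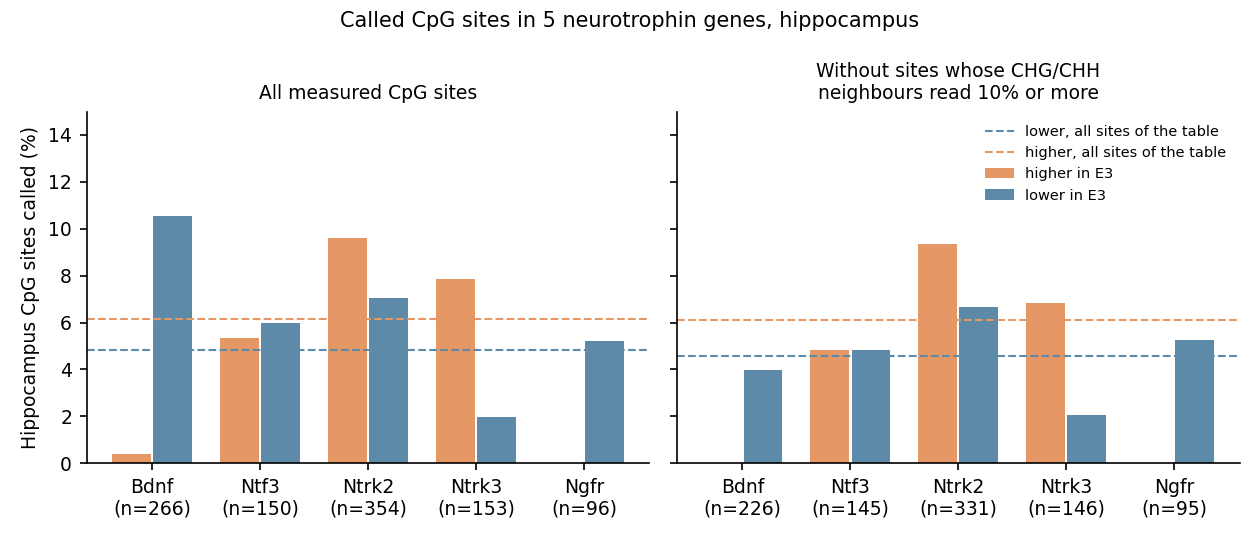
Share of hippocampus CpG sites called higher or lower in E3 than in CT (percent of a gene's measured sites, y axis) in the 5 genes, over all sites (left) and without sites whose CHG and CHH neighbours read 10% or more (right). Bars are shares within a gene. Dashed lines are the shares over all sites of the table on the left and over all sites left in the table without such neighbours on the right. The lower share of Bdnf stands at 10.5% on the left and 3.98% on the right.

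Bdnf, on chromosome 2 from 109674700 to 109727043 of GRCm38, has 9 distinct RefSeq starts, numbered here in their order along the gene. Most of the gene was unmethylated in both libraries: 185 of its 266 sites were under 10% in E3 and in CT, and 110 had no methylated read in either. Its shared coding exon was highly methylated, where 17 sites averaged 93.4% in E3 and 99.2% in CT. Within 1 kb of a start, 27 of 236 sites were called lower and 0 higher, beside 3.85% lower and 1.71% higher over all sites within 1 kb of any RefSeq start. The frontal cortex table listed no Bdnf CpG.

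The windows of 1 kb on each side of the starts were then compared with reads summed over their sites. A window was called at a Benjamini-Hochberg adjusted p under 0.05 over all windows and a difference of at least 10 points, which held for 8.17% of 43755 windows. None of the 8 measured Bdnf windows was called. Linked sites share reads, so the adjusted p-values of summed reads are too small.

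At the first start the level was 0.708% in E3 (interval 0.241 to 2.06%) and 0.568% in CT (interval 0.1 to 3.15%), over 20 sites. At the second start it was 2.96% in E3 and 0.743% in CT, and at the third 3.88% in E3 and 0.753% in CT, differences of 2.22 and 3.12 points with adjusted p-values of 0.0111 and 6.25e-06 (Fisher's exact test) that fell short of the 10-point rule. At the fourth it was 3.12% in E3 and 4.27% in CT. These 4 windows were nearly free of methylation in both libraries.

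The fifth, sixth and seventh starts lie close together, at 109693027, 109693563 and 109694409, and their windows share sites. Their levels were 2.33% in E3 (interval 1.84 to 2.94%) and 11.1% in CT (9.37 to 13.2%) at the fifth, 2.41% in E3 and 10.1% in CT at the sixth, and 1.77% in E3 (1.34 to 2.34%) and 11.8% in CT (9.86 to 14.0%) at the seventh. The E3 intervals did not overlap the CT intervals, but intervals of summed reads from linked sites are too narrow. The differences of -8.82, -7.72 and -9.99 points had adjusted p-values of 2.23e-24, 1.15e-19 and 4.77e-30 from Fisher's exact test and fell short of the 10-point rule. With windows of 500 bases on each side, the sixth (-10.5 points) and seventh (-18.0 points) were called lower, beside 6.63% of such windows in the table.

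The CHG and CHH cytosines of the same windows moved with them. They read 1.34% in E3 and 5.23% in CT around the fifth start, 1.65% in E3 and 5.44% in CT around the sixth, and 1.64% in E3 and 8.39% in CT around the seventh. Around the first start they read 0.455% in E3 and 0.592% in CT. Without the CpG sites whose CHG and CHH neighbours read 10% or more, the levels were 2.55% in E3 and 4.42% in CT at the fifth start, 2.65% in E3 and 3.08% in CT at the sixth, and 1.82% in E3 and 3.76% in CT at the seventh. The differences were then -1.87, -0.43 and -1.94 points.

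The eighth start, at 109709383, had no measured site. The ninth, beside the coding exon, was methylated in both libraries, at 94.6% in E3 (interval 92.2 to 96.3%) and 98.9% in CT (95.9 to 99.7%).

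**Figure D2:**
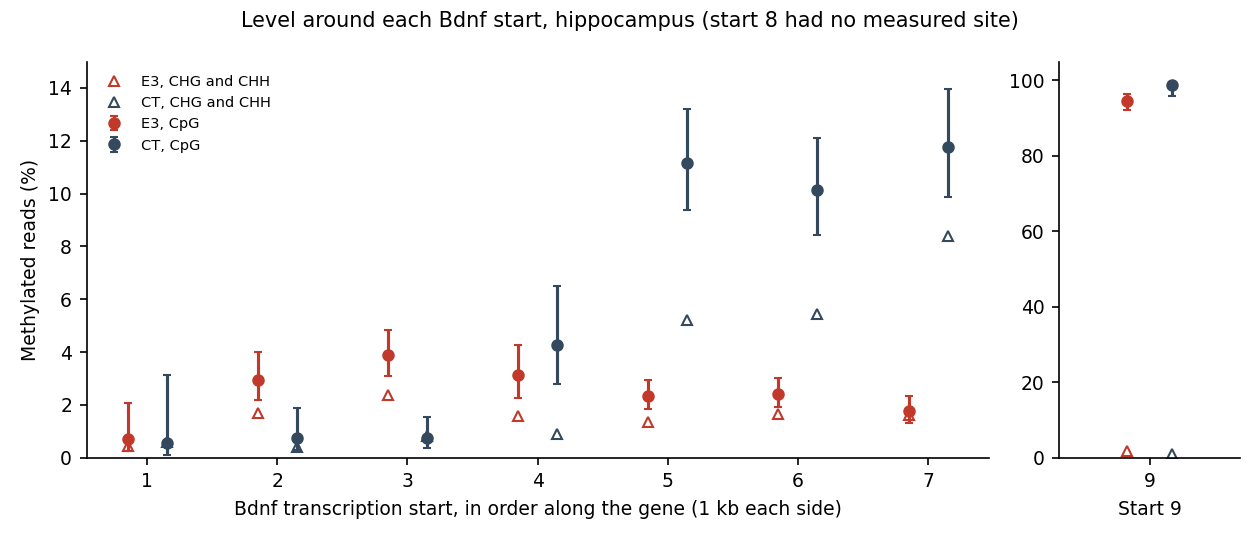
Methylated reads (percent, y axis) within 1 kb of each measured Bdnf start in the hippocampus, with E3 in red left of CT in blue. Circles are the summed reads of CpG sites with 95% Wilson intervals and open triangles those of CHG and CHH cytosines. At starts 5 to 7 the CT circles lie between 10.1 and 11.8% and the CT triangles between 5.23 and 8.39%, both above E3.

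Of the 28 lower Bdnf sites, 14 lay in a short run after the sixth start. Across the members 221 CpGs were read on both strands, of which 10 were called lower and 1 higher on both, beside 1.73% called the same way on both over all such CpGs. Of the 10, 7 lay in Bdnf and formed that run, within 46 bases (chr2:109693915-109693960), 352 to 397 bases after the sixth start and inside the intron that follows its exon. The run is shown with 5 RefSeq reference bases on each side, plus strand of GRCm38, with CpGs in capitals, because every CpG within the 46 bases was called on both strands.
Bdnf run, chr2:109693910-109693965: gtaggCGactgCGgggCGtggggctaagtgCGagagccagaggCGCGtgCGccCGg

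On the plus strand the 7 CpGs had 0% methylated reads in E3 at 23 to 46 reads, and 16.7 to 30% in CT at 10 to 18 reads. On the minus strand they had 0 to 7.69% in E3 at 13 to 26 reads, and 66.7% at every CpG in CT at 6 to 12 reads. E3 was thus at or near 0 throughout, and CT differed between the strands.

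The 20 CHG and CHH cytosines read inside the same 46 bases had the same strand pattern. The 4 on the plus strand were at 0% in E3 and 10 to 30% in CT, and the 16 on the minus strand were at 0 to 7.69% in E3 and 60 to 66.7% in CT. Summed over both strands, CpGs read 0.836% in E3 and 40.9% in CT, and the other cytosines 0.267% in E3 and 53.9% in CT. In the 150 bases before the run CpGs read 0.612% in E3 and 16.0% in CT and the other cytosines 0.512% in E3 and 15.1% in CT. In the 150 bases after it CpGs read 4.42% in E3 and 8.16% in CT and the other cytosines 3.92% in E3 and 2.75% in CT. None of the 7 CpGs passed the adjusted p on both strands, and none was left without the sites whose CHG and CHH neighbours read high. Whether the CT reads of this run carried methylation at every cytosine or escaped conversion was not tested.

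**Figure D3:**
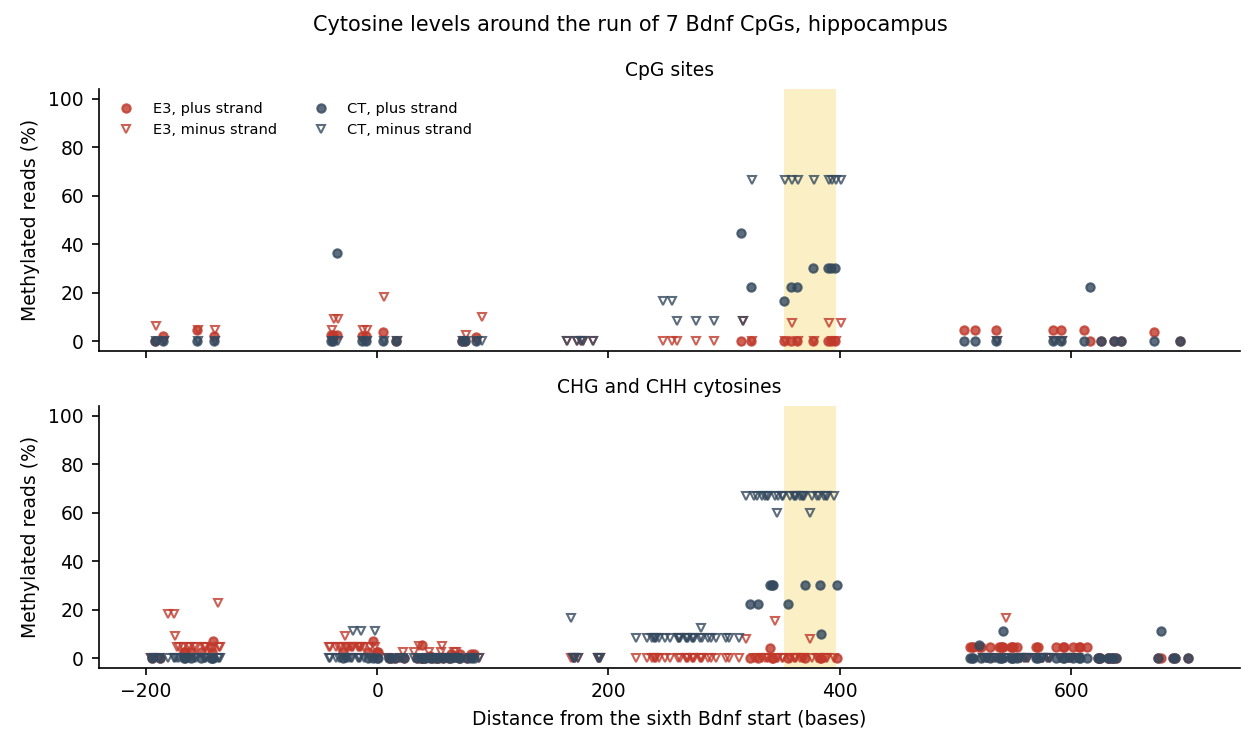
Level of each CpG site (upper panel) and each CHG or CHH cytosine (lower panel) in the hippocampus, as percent methylated reads against distance from the sixth Bdnf start in bases, with the run of 7 CpGs shaded. Red is E3 and blue is CT, filled circles are the plus strand and open triangles the minus strand. In the shaded run the CT minus strand stands at 60 to 66.7% in both panels while E3 stays at 0 to 7.69%.

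Over the whole gene, 19 of the 28 lower Bdnf sites had CHG and CHH neighbours at 10% or more in CT and 0 had them so in E3. Over the whole table, 10793 of 107585 lower sites had such neighbours in CT and 1876 in E3. Among all 2226271 sites, 89976 had them in CT and 62880 in E3. The median neighbour level at the 28 sites was 0.586% in E3 and 25.5% in CT, and at the 237 Bdnf sites that were not called it was 1.17% in E3 and 0% in CT. Bdnf CHH cytosines were called higher at 0 and lower at 56 of 946, beside 0.319% higher and 3.36% lower over all CHH cytosines. Its CHG cytosines were called higher at 0 and lower at 9 of 290, beside 0.254% higher and 3.17% lower over all CHG cytosines. Together these lower calls include cytosines in the run and next to it. Such cytosines share reads, so the calls are not independent and do not describe the whole gene evenly.

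Bdnf sites called lower whose neighbours were low were fewer. The lower site with the smallest p, on the minus strand at 109692878, 149 bases before the fifth start, had 0% of 17 reads in E3 and 100% of 6 reads in CT (Fisher's exact test, p = 9.91e-06, adjusted p = 0.00137), with neighbours at 0.725% in E3 and 0% in CT. At 109694710, 301 bases after the seventh start, 2% of 100 reads in E3 and 21.1% of 38 reads in CT were methylated, with neighbours at 0.267% in E3 and 0.351% in CT. These 2 are among the 5 Bdnf sites that passed the adjusted p, and the other 3 lie in the run. Those 3 had 26 reads in E3 and 12 in CT, exactly double the 13 reads in E3 and 6 in CT of the other minus-strand sites of the run, of which those at 0% in E3 and 66.7% in CT had an adjusted p of 0.0881 by Fisher's exact test. The only higher site, at 109724594 in a non-coding exon, had 100% of 21 reads in E3 and 40% of 5 reads in CT, and its neighbours read 14.5% in E3 and 0% in CT.

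The fourth start is that of exon IV, whose promoter is known for its response to neuronal activity through a cAMP response element (CRE). The 100 bases before it are shown on the plus strand of GRCm38, with CpGs in capitals, because they hold that element.
Bdnf exon IV promoter, chr2:109692336-109692435: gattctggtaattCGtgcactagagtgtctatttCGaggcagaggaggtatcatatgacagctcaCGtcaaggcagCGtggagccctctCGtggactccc

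The letters TCACGTCA, a variant of the CRE, were found 38 to 31 bases before the start on the plus strand. Searched on both strands, they occur in 0.442% of 32817 RefSeq promoter windows of 300 bases, and among the 11 windows of the members in this one alone. The full CRE, TGACGTCA, occurs in 1.79% of windows and in 0 of the 11, and the consensus estrogen response element in 0.0701% and in 0 of the 11. The CpG inside the variant had 0% methylated reads in E3 (26 and 28 reads on the 2 strands) and 0% in CT (12 and 8 reads). Of 7 measured sites in these 100 bases, 7 were at 0% in E3 and 6 in CT. The exception was called lower, on the minus strand 10 bases before the start, with 0% of 29 reads in E3 and 33.3% of 6 reads in CT.

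Among 6032 genes with at least 100 sites, those most like Bdnf were Il4i1b, Trmt1 and Cnpy1. Likeness was the Euclidean distance over mean level in E3, mean level in CT, and percent of sites called higher and lower. Il4i1b averaged 13.7% in E3 and 17.5% in CT, with 0.917% of sites higher and 10.1% lower, and the levels were 13.6% in E3 and 16.2% in CT in Trmt1, which encodes a tRNA methyltransferase, and 13.2% in E3 and 15.5% in CT in Cnpy1. Bdnf itself had 0.376% higher and 10.5% lower.

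Ntf3, on chromosome 6 from 126101412 to 126166772 on the minus strand, has 4 RefSeq starts. None of its windows was called, with differences between -1.1 and 7.58 points. The first and second starts lie 28 bases apart and hold the same 19 sites, at 18.4% in E3 (interval 15.8 to 21.3%) and 10.8% in CT (7.87 to 14.7%). The third window read 5.71% in E3 and 5.76% in CT, and the fourth 2.24% in E3 and 3.34% in CT.

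At the first 2 starts the CHG and CHH cytosines went the other way, with 1.32% in E3 and 10.6% in CT. Without the CpG sites beside high CHG and CHH neighbours, 15 sites read 18.6% in E3 and 5.3% in CT, and both windows were called higher (adjusted p = 1.58e-06, Fisher's exact test), beside 7.26% of windows called in the table on the same terms. This set of sites was chosen after the values had been seen. The other 2 Ntf3 windows read 0.841% in E3 and 0.677% in CT, and 0.457% in E3 and 0.664% in CT, at these cytosines.

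Both frontal cortex CpGs of Ntf3 lay near its starts and were higher in E3. At 126166904, 132 bases before the first start, the deposited level was 20.9% in E3 and 2.33% in CT. At 126164919, in a non-coding exon 41 bases after the third start, it was 15.8% in E3 and 1.89% in CT. The authors' cortex table lists only called sites and gives no reads, so the depth behind these levels is unknown. In the hippocampus 126166904 read 21.7% of 23 reads in E3 (9.66 to 41.9%) and 0% of 6 reads in CT (0 to 39.0%), and 126164919 read 4% of 75 reads in E3 and 0% of 25 reads in CT. Neither was called there, and the intervals of E3 and CT overlapped.

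The Ntf3 calls near the starts included strands that disagreed. At the CpG 126165079, before the third start, the plus strand had 0% of 30 reads in E3 and 100% of 6 reads in CT, and the minus strand had 35% of 20 reads in E3 and 0% of 11 reads in CT. Both were called, in opposite directions, at a single CpG.
Ntf3, chr6:126165049-126165110, GRCm38 plus strand, shown with CpGs in capitals and the CpG in question in the middle: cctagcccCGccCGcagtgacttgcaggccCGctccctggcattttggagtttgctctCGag

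The site at 126166614, in a non-coding exon, had 0% of 29 reads in E3 and 57.9% of 19 reads in CT, with CHG and CHH neighbours at 0.393% in E3 and 29.4% in CT. The other lower sites with the smallest p were 126164107 (11.1% of 9 reads in E3 and 100% of 6 in CT), 126164909 (1.92% of 52 in E3 and 33.3% of 12 in CT) and 126166481 (38.8% of 49 in E3 and 100% of 6 in CT). The neighbours of those sites were at or under 0.86% in E3 and at 0% in CT.

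The higher Ntf3 sites lay mostly in the long intron. The sites 126105334 and 126105275 had 69.6% and 82.6% of 23 reads in E3 and 0% and 16.7% of 6 reads in CT. The sites 126161114 and 126161123 had 79.4% and 82.4% of 34 reads in E3 and 33.3% of 9 reads in CT at both. Nearer to the first start, 126166508 had 40.6% of 64 reads in E3 and 8.33% of 24 in CT. Away from the starts, 5 of 42 sites were called higher and 0 lower, beside 6.18% higher and 4.83% lower over all sites. All sites include those near starts, and no share was made for sites away from starts alone. Within 1 kb of a start 3 of 108 were higher and 9 lower. Near any RefSeq start these shares were 1.71% higher and 3.85% lower.

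Ntrk2, the main receptor of Bdnf, lies on chromosome 13 from 58806472 to 59133970 on the plus strand. Its 8 RefSeq starts lie close together with shared sites, and all 8 windows were nearly unmethylated, with 1.46 to 2.12% in E3 and 0 to 0.515% in CT. None was called, and 0 of the 25 sites within 1 kb of a start were called. Over all sites within 1 kb of any RefSeq start, 1.71% were called higher and 3.85% lower. All 59 Ntrk2 calls lay farther along the gene, where 329 sites averaged 71.1% in E3 and 71.5% in CT. Of these sites 34 were higher and 25 lower, beside 6.18% higher and 4.83% lower over all sites. No share was made for sites away from starts alone. At 27 of the 59 the adjusted p was under 0.05. These 27 came from 354 measured Ntrk2 sites, and 3.35% of all sites in the table were called with such an adjusted p.

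**Figure D4:**
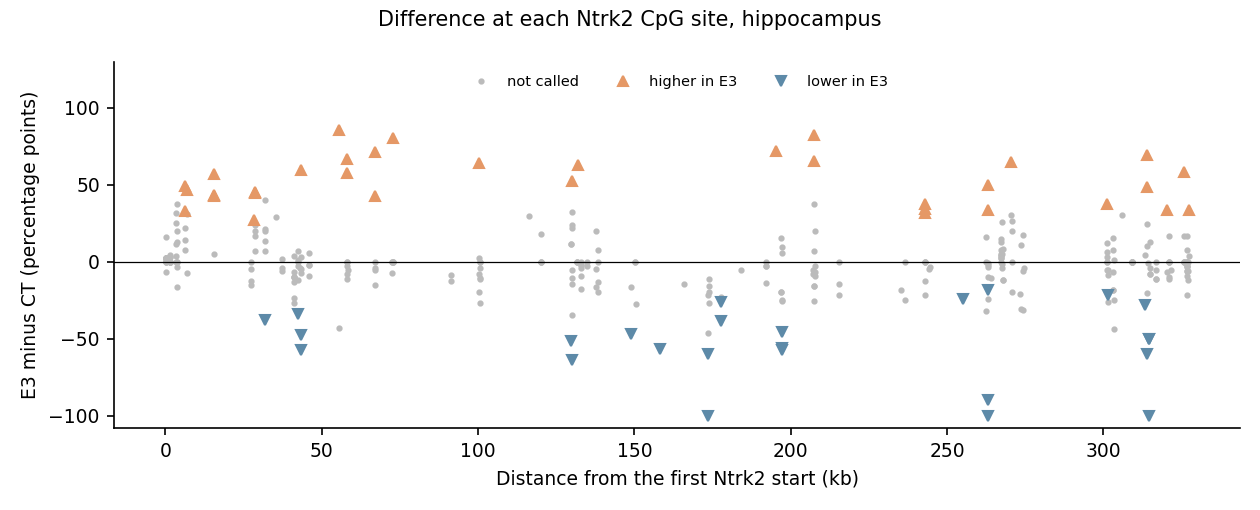
Difference in CpG methylation (E3 minus CT, percentage points) at each Ntrk2 site measured in the hippocampus, against distance from the first start in kb. Grey points were not called, orange triangles are the 34 sites called higher and blue triangles the 25 called lower, and both directions occur along the length of the gene.

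The frontal cortex table lists 5 CpGs in Ntrk2, all lower in E3, beside 63.7% lower among all listed CpGs. Of the 6 listed member CpGs measured in the hippocampus, 3 were called there in the same direction and 0 in the opposite one. Over the whole table, 14.4% of the listed CpGs measured there were called in the same direction and 14.6% in the opposite one, which are nearly equal shares. All 3 shared calls lay in Ntrk2 introns. Reads of both strands were summed for this comparison where both were measured. In the hippocampus 59069595 was measured on both strands, 59121188 on the minus strand alone and 58980161 on the plus strand alone.

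The 3 CpGs are shown with 30 RefSeq reference bases on each side, plus strand of GRCm38, because the same 2 bases differed in both tissues. CpGs are in capitals and the CpG in question is in the middle.
Ntrk2, chr13:59069565-59069626: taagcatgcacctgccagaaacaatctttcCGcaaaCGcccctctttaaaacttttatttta
Ntrk2, chr13:59121158-59121219: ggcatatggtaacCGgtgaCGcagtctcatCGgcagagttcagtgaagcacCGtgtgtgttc
Ntrk2, chr13:58980131-58980192: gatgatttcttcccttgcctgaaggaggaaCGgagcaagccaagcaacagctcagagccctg

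The CpG at 59069595 also lies in an exon of the predicted gene Gm53063 on the opposite strand. In the frontal cortex it read 1.41% in E3 and 97.1% in CT. In the hippocampus it read 0% of 92 reads in E3 (0 to 4.01%) and 97.5% of 40 reads in CT (87.1 to 99.6%), with p = 8.44e-33 by Fisher's exact test. Both strands had 0% in E3, and 90% (plus) and 100% (minus) in CT. The next CpG, 6 bases on, had 100% of 38 reads on the plus strand and 81.5% of 54 on the minus strand in E3, and 50% of 10 and 100% of 30 in CT. At this second CpG the plus strand was called higher and the minus strand lower, so the 2 CpGs did not behave as a block. CHG and CHH cytosines within 50 bases read 1.07% in E3 and 1.91% in CT.

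The CpG at 59121188 read 0% in E3 and 67.9% in CT in the frontal cortex, and 0% of 12 reads in E3 (0 to 24.2%) and 100% of 8 reads in CT (67.6 to 100%) in the hippocampus. The CpGs 21 and 31 bases on both read 50% of 12 in E3 and 100% of 8 in CT. CHG and CHH cytosines within 50 bases read 1.57% in E3 and 0% in CT.

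The CpG at 58980161 read 0% in E3 and 52.2% in CT in the frontal cortex, and 0% of 15 reads in E3 (0 to 20.4%) and 100% of 6 reads in CT (61.0 to 100%) in the hippocampus. Here the CHG and CHH cytosines within 50 bases were high in CT, at 1.34% in E3 and 30.4% in CT. Without sites beside such neighbours, 2 of the 3 shared calls stood. With at least 10 reads in both libraries, the CpG at 59069595 alone stood.

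Of the other listed Ntrk2 CpGs, 58897917 read 10% in E3 and 60% in CT in the frontal cortex, and 50% of 22 reads in E3 and 62.5% of 8 reads in CT in the hippocampus, where it was not called. The CpG 59128214, in a coding exon, read 0% in E3 and 73.7% in CT in the frontal cortex and was not measured in the hippocampus.

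**Figure D5:**
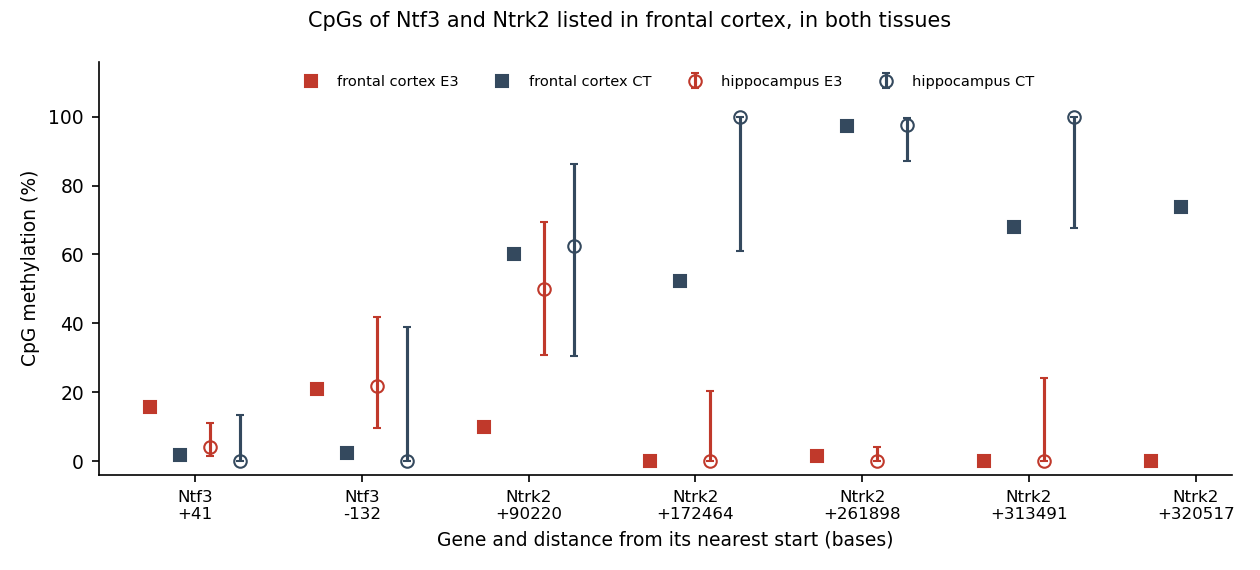
CpG methylation (percent, y axis) at the 7 CpGs of Ntf3 and Ntrk2 listed in frontal cortex, labelled by distance in bases from the gene's nearest start. Squares are the frontal cortex and open circles the hippocampus with 95% Wilson intervals, with red E3 left of blue CT in each tissue. At 3 Ntrk2 CpGs E3 stands at 0 to 1.41% in both tissues and CT at 52.2 to 100%.

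Ntrk2 also had 2 further CpGs called lower on both strands in the hippocampus. At 58984034 the plus strand had 11.4% of 70 reads in E3 and 50% of 16 in CT, and the minus strand 0% of 58 in E3 and 26.3% of 38 in CT. At 59003565 it was 42.4% of 66 in E3 and 100% of 11 in CT on the plus strand, and 43.3% of 30 in E3 and 88.9% of 9 in CT on the minus strand. The CHG and CHH neighbours of that minus-strand site read 13.3% in E3 and 2.34% in CT.

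The higher Ntrk2 sites with the smallest p were read on a single strand or differed from the other strand. At 58873570 the minus strand had 100% of 38 reads in E3 and 28.6% of 14 in CT, while the plus strand of that CpG read 100% in both. The sites 59077096, 59001814, 59013891 and 58822152 had 95%, 95.5%, 96.8% and 68.9% in E3 at 22 to 61 reads, and 30%, 23.5%, 14.3% and 11.8% in CT at 7 to 20 reads. At all 4 the CHG and CHH neighbours were under 4% in both libraries.

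Ntrk3, the main receptor of Ntf3, lies on chromosome 7 from 78179986 to 78581034 on the minus strand. Of its 3 starts, 2 had measured sites. Their windows read 3.39% and 1.17% in E3 and 1.46% and 0.978% in CT and were not called, and 0 of 58 sites within 1 kb of a start were called. Over all sites within 1 kb of any RefSeq start, 1.71% were called higher and 3.85% lower. All 15 Ntrk3 calls lay farther along the gene, in sites that averaged 76.5% in E3 and 71.7% in CT. Of these 95 sites 12 were higher and 3 lower, beside 6.18% higher and 4.83% lower over all sites. No share was made for sites away from starts alone. The frontal cortex table named no Ntrk3 CpG.

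A single Ntrk3 CpG was higher on both strands, at 78545244 in an intron. It had 84% of 25 reads on the plus strand and 65.4% of 26 on the minus strand in E3, and 0% of 8 and 0% of 6 in CT. It is shown with 30 reference bases on each side because it was the only member CpG called higher on both strands.
Ntrk3, chr7:78545214-78545275, GRCm38 plus strand: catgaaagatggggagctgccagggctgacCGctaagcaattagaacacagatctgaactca

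Neighbouring sites did not all follow it. The site 78545353 was higher too, with 75% of 28 reads in E3 and 12.5% of 8 in CT, whereas 78545193, on its other side, was lower, with 17.9% of 28 reads in E3 and 100% of 8 in CT. CHG and CHH cytosines within 50 bases of the 3 sites were under 3% in both libraries.

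The best covered Ntrk3 calls were 3 sites on a single strand within 50 bases. At 78416460, 78416491 and 78416505 the levels were 93.0%, 99.0% and 85.1% in E3 at 199 to 202 reads, and 81.8%, 81.8% and 68.2% in CT at 44 reads. The smallest p among them was 2.02e-05, at 78416491 (Fisher's exact test, adjusted p = 0.00227). Reads were rebuilt from fractions of 2 decimals, which limits the exactness of counts at over 100 reads. The sites 78265879 and 78265675 had 91.7% and 83.3% of 12 reads in E3 and 0% of 5 reads in CT. The other lower sites, 78405540 and 78332875, had 28.6% of 28 and 64% of 50 reads in E3, and 65.6% of 32 and 100% of 12 reads in CT.

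Ngfr, which binds all neurotrophins and their precursors, lies on chromosome 11 from 95568818 to 95587698 on the minus strand. The window of its start read 2.62% in E3 (interval 1.79 to 3.81%) and 2.84% in CT (1.44 to 5.5%) over 33 sites, none of them called. All 5 calls were lower in E3 and lay within the gene. They made up 5.21% of the sites of Ngfr, beside 4.83% called lower over all sites. In a coding exon, 95570994 had 36.4% of 22 reads in E3 and 93.1% of 29 in CT, and its neighbour 95570977 had 27.3% of 11 in E3 and 86.7% of 15 in CT. In introns, 95584924 had 3.45% of 87 reads in E3 and 57.1% of 7 in CT, and 95583069 and 95583058 had 79.4% and 82.4% of 34 reads in E3 and 100% of 26 in CT. Their CHG and CHH neighbours were under 5% in both libraries, and 95570994 and 95584924 passed the adjusted p. No Ngfr CpG was listed in the frontal cortex.

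The levels outside CpG were low in all 5 genes. Pooled CHG and CHH reads were methylated at 1.98% in E3 and 3.04% in CT in Bdnf, 1.29% in E3 and 3.06% in CT in Ntf3, 2.6% in E3 and 2.11% in CT in Ntrk2, 1.9% in E3 and 2.85% in CT in Ntrk3, and 1.09% in E3 and 2.09% in CT in Ngfr. Beside the 3.36% of all CHH cytosines that were called lower, the share was 5.92% in Bdnf, 5.81% of 1188 in Ntrk3 and 5.64% of 656 in Ntf3, and 2.93% of 2662 in Ntrk2 and 2.27% of 308 in Ngfr. The Bdnf share includes cytosines of its run, which share reads. CHH cytosines called higher numbered 18 in Ntrk2 (0.676%), 3 in Ntrk3 (0.25%), 1 in Ntf3 (0.152%) and 0 in Ngfr. Over all CHH cytosines the share called higher was 0.319%, so Ntrk2 alone of these genes stood above it for CHH. CHG cytosines called higher were 0.637% of 471 in Ntrk3, 0.327% of 918 in Ntrk2 and 0% in Bdnf, Ntf3 and Ngfr, beside 0.254% over all. CHG cytosines called lower were 4.46% in Ntrk3, 3.1% in Bdnf, 2.98% in Ntf3, 1.74% in Ntrk2 and 0% in Ngfr, beside 3.17% over all. Lower calls outnumbered higher ones over the whole table too.

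The genes around them in the pathway were taken as a list of 35, covering other ligands and receptors, sortilins, proteases that process neurotrophins, adaptors and effectors, Ngfr partners and regulators of Bdnf transcription. All 35 were measured, with 234 sites higher and 238 lower of 4245. That is 11.1%, beside the 11.0% over all sites, so the list as a whole stood at the background. Of its 110 promoter windows, 2 were called higher and 9 lower, in 3 genes, beside 8.17% called of the 43755 windows in the table.

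Pcsk1, a convertase that cleaves prohormones and proneurotrophins, had 3 overlapping windows called lower, of which 2 read 14.3% in E3 and 26% in CT over the same 56 sites, and 17 of its 56 sites were lower and 2 higher. Rapgef1, a guanine nucleotide exchange factor downstream of Trk receptors, had 6 nearly identical windows lower at 6 sites, at 46.8% in E3 and 88.1% in CT. Arnt2, a bHLH-PAS partner of the Bdnf regulator Npas4, had 2 nearly identical windows higher, at 76.8% in E3 and 39.0% in CT over 10 sites. Unlike for the member windows, CHG and CHH levels were not examined in the windows of these pathway genes. The genes with the most called sites were Sorcs2 (27 higher and 23 lower of 378, 13.2%), Sorcs1 (19 higher and 20 lower of 287, 13.6%), Lingo1 (17 higher and 22 lower of 248, 15.7%) and Shc3 (21 higher and 9 lower of 212, 14.2%), all of them genes with many measured sites. The largest shares called were in Pcsk1 (33.9%), Plat (23.4% of 47 sites), which encodes tissue plasminogen activator, and Traf6 (22.5% of 80 sites), an adaptor of Ngfr. Ntf5, the other ligand of Ntrk2, had 6 CpGs listed in the frontal cortex, all lower in E3, at 1.85 to 12.3% in E3 and 16.8 to 25.7% in CT. Most of them lie close together, from 45415858 to 45416022. Of the 33 CpGs listed there in the pathway genes 27 were lower and 6 higher, and 63.7% were lower over all listed CpGs. In the hippocampus 2 of the 45 Ntf5 sites were higher and 2 lower.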

How the data were processed

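DNA of 4 libraries was analysed, 1 per tissue and condition. The authors cut it with MspI and TaqαI, converted it with bisulfite and processed reads with TrimGalore, Bismark (mm10) and MethylDackel. The authors' deposited hippocampus tables give per cytosine and strand the read count (coverage) and the methylated fraction to 2 decimals, from which methylated reads were rebuilt by rounding. The authors' deposited cortex tables give the methylated fraction of each library at called sites only, with both strands of a CpG merged. The authors' p-value columns were not used.

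Genes and starts came from RefSeq (GRCm38.p6, the same assembly as mm10). The mean coverage over hippocampus CpG sites was 33.5 reads in E3 and 12.3 in CT. Sites and summed windows (at least 5 sites) were tested with Fisher's exact test (Python 3.11, SciPy and Numba, checked on simulated data). No test was run on cortex levels or gene means. The members, the pathway list and the tests were chosen with earlier results of these data known. Named were every cortex CpG of a member, every Bdnf start, CpGs called alike on both strands, up to 5 called sites with the smallest p per member and direction, pathway genes with a called window and the 4 with the most called sites, and the 3 genes nearest to Bdnf. Further sites beside these, Ntf5, Plat and Traf6 were named after their values were seen. Alternatives were other coverage limits, differences, window sizes, summed strands and, added after seeing the data, leaving out CpG sites with high CHG and CHH neighbours.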

Additional observations from a re-analysis of the deposited data

Results flagged for a closer look

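The frontal cortex also lists CHG and CHH cytosines, which no comparison above used. Of 32 in the members, 6 read higher in E3 than in CT (18.8%) and 26 lower, beside 20.5% of the CHG and 24.7% of the CHH cytosines higher over the whole tables. Of the lower ones, 25 lay in Ntf3 and 1 in Ntrk2, a CHG cytosine at 58990677 with 0% in E3 and 20% in CT. In Ntrk2, the CHH cytosine at 59121311 read 88.2% in E3 and 0% in CT, and the CHG cytosines at 59070370 and 59080771 read 71.4% and 63.2% in E3 and 0% in CT at both. In Ntrk3, the CHH cytosines at 78550504 and 78545209 read 46.2% and 29.0% in E3 and 5.88% and 0% in CT, and the CHG cytosine at 78332623 read 23.3% in E3 and 0% in CT. In the hippocampus, the Ntrk2 cytosine at 59080771 read 50% of 8 reads in E3 and 20% of 5 in CT, the Ntrk3 cytosine at 78545209 read 0% of 28 in E3 and 0% of 8 in CT, and the other 4 were not measured. The depth of the cortex levels is unknown.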

How the results depend on the processing

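Without CpG sites whose CHG and CHH neighbours read high (chosen after seeing the data), Bdnf had 9 lower sites, against 28 with all sites, and its mean difference was -0.617 points, against -3.46, while the calls of all members (94, against 125) stayed within 1.5 times, and 2 promoter windows, both of Ntf3, were called, against 0. The member calls were 70 at 10 reads in both libraries, 21 at 20 reads and 41 with adjusted p, and the lower Bdnf sites 16, 4 and 5. As shares of the sites tested, the calls at 10 and 20 reads were 14.9% of 469 and 20.6% of 102 member sites, beside 14.1% and 18.4% of all sites, and the lower Bdnf sites 14.5% of 110 and 15.4% of 26, beside 6.55% and 9.21%. With adjusted p the member calls were 4.02% of 1019, beside 3.35% of all sites, and the lower Bdnf sites 1.88% of 266, beside 1.31%. A difference of 25 points, summed strands, sites over 100 reads left out and gene bodies alone kept both counts within 1.5 times. The called windows were 2 with 500 bases each side (Bdnf), 1 at 10 reads and 1 with means of site levels without a test (the seventh Bdnf start in both). With reads pooled, the E3 minus CT difference was -0.806 points in Bdnf, 5.24 in Ntf3, -5.62 in Ntrk2, 9.02 in Ntrk3 and -9.45 in Ngfr, and at 10 reads it was 2.12 in Ntrk2 and -0.199 in Ntrk3, against means of -0.3 and 3.5, so the sign of these 2 small means depends on the sites kept. At 25 points 0 higher cortex CpGs remained, against 2. With at least 10 reads, 1 CpG was lower in both tissues, against 3, and the pathway list had 293 calls, against 472. The cause of these moves was not tested, except that stricter limits test fewer sites. No paired analysis was possible because each group holds 1 library.

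The median member site had 9 reads in CT, so at many sites a difference of moderate size could not be detected at this depth. Levels of cytosines on the same read are linked, and some sites carry exactly double the reads of their neighbours. With 1 library per condition, spread between mice is unknown.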

Other observations

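All 25 listed frontal cortex CHG and CHH cytosines of Ntf3 were lower in E3, beside 79.5% of CHG and 75.3% of CHH cytosines over the whole tables. At 21 of them the level was 0% in E3 and 28.6% in CT, and these lay within 141 bases of an Ntf3 intron, from 126132827 to 126132968. At 2 others in that stretch, 126132850 and 126132880, the level was 0% in E3 and 35.7% and 42.9% in CT. No Ntf3 CpG of that stretch was listed, and none of these cytosines had 5 reads in both hippocampus libraries. As in the Bdnf run of the hippocampus, neighbouring cytosines shared a level in the CT library, here in another tissue and another library. Whether conversion or methylation differed there was not tested.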
